A study of Mus musculus with 4 samples.

Results

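Amino acid transporters carry amino acids across the plasma membrane, and 9 genes of 4 carrier families are described here in mouse T-helper 17 (Th17) cells: Slc7a5, Slc3a2, Slc7a1, Slc7a6, Slc7a11, Slc1a4, Slc1a5, Slc38a1 and Slc38a2. The genes were taken by symbol, and each matched 1 of the 50600 gene identifiers in the deposited tables. Th17 cells are CD4 T cells that make interleukin 17. RNA was sequenced in 4 libraries of 1 group, labelled biological replicates 1 to 4, from primary Th17 cells of C57BL/6NJ mice; the labels record neither sex nor age, list the same donor for every library, link a protocol for differentiating CD4 T cells and name no further treatment. The output names in the file headers hold a tag of 2 hours without its starting event. With 1 group there is no contrast between conditions, so levels are compared between genes within libraries and each gene is compared between libraries.

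T cells that leave the resting state need amino acids for protein, nucleotide and glutathione synthesis, and the transporters differ in what they bring in. The SLC3A2 protein (CD98) is a heavy chain that forms heterodimers with light chains of the SLC7 family, among them SLC7A5 (LAT1), which exchanges leucine and other large neutral amino acids, SLC7A6, which exchanges cationic for neutral amino acids, and SLC7A11 (xCT), which takes up cystine in exchange for glutamate. SLC7A1 (CAT1) carries arginine and lysine without a heavy chain. SLC1A5 (ASCT2) and SLC1A4 (ASCT1) are sodium-dependent exchangers of small neutral amino acids, and SLC38A1 and SLC38A2 are sodium-coupled importers of glutamine, alanine and related amino acids.

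The labelled cell type was checked first. All 5 CD4 T cell markers (Cd3e, Cd3d, Cd4, Trac and Lck) stood above 1 TPM (a share of all transcripts after division by gene length), with Cd3e lowest at 226 ± 18.8 TPM (SD, n = 4). Of 7 Th17 markers 4 reached a mean of 1 TPM; Il17a, which encodes interleukin 17A, stood at 5.65 ± 1.20 TPM, while Il23r and Ccr6 had 11 and 15 counts in all. Of the markers of other cells, 0 of 6 myeloid and dendritic genes, 0 of 4 NK genes and 1 of 5 B cell genes (Cd79a, 1.15 ± 0.516 TPM) reached 1 TPM, all 4 erythroid genes had 0 counts, and Cd8b1 stood at 27.0 ± 4.86 TPM beside Cd8a at 0.216 ± 0.184 TPM. Some of these markers share many of their 31-base stretches with other genes: Itgam 68.1%, Lyz2 32.8%, Klrb1c 21.2%, Hba-a1 75.5% and Hbb-bs 54.4%. Fragments that align in several places were not counted, so low or 0 counts of these markers are uncertain. Itgam stood at 0.813 ± 0.206 TPM, with 1.10 TPM in replicate 1. The libraries held 25847970 to 40652146 counts. Sex-linked genes set replicates 1 and 2 (Xist at most 0.791 TPM, Ddx3y at least 213 TPM) apart from replicates 3 and 4 (Xist at least 76.5 TPM, Ddx3y at most 1.39 TPM), although the labels give 1 donor identifier. In bulk RNA, fewer cells of a type and less RNA per cell cannot be told apart.

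The highest and the lowest of the 9 genes are Slc38a2 and Slc7a11, and the 250 bases before their RefSeq transcription starts are shown to set a strongly expressed carrier beside one close to absent. The sequences are those of RefSeq for GRCm38.p6 (mm10), on the minus strand of chr15:96699729-96699978 for Slc38a2 and of chr3:50443614-50443863 for Slc7a11, written in the direction of transcription. Capitals mark matches to 3 motifs, searched on both strands: the E-box CACGTG, the core of the amino acid response element TGATGNAA, to which ATF4-containing dimers bind, and the core of the antioxidant response element TGACNNNGC.
Slc38a2: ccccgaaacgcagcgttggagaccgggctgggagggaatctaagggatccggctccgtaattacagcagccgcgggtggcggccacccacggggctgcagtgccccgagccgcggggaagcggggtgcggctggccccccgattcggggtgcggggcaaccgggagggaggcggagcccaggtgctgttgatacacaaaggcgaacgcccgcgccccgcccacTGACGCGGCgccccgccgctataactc
Slc7a11: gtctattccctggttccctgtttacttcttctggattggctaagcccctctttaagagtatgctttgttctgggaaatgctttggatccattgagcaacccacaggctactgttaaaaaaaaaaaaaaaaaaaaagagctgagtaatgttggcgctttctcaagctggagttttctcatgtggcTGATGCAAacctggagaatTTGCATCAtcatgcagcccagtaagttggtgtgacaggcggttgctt

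The Slc7a11 window held the amino acid response core in both orientations, TGATGCAA from 66 to 59 bases before the start and TTGCATCA, its reverse complement, from 47 to 40 bases before it. Of all 32851 windows of this length in the table, 3.45% held the core at least once and 0.0396% (13 windows) at least 2 times. The Slc38a2 window held the antioxidant response core as TGACGCGGC from 27 to 19 bases before the start, which 10.2% of all windows hold in some form. The windows also differed in composition, with 72.0% G or C and 30 CpG dinucleotides in Slc38a2, and 43.2% and 2 in Slc7a11; the median window held 52.4% and 6. Windows were found for 6 of the 9 genes. The antioxidant response core also occurred upstream of Slc7a1 and Slc7a6, no window of Slc3a2 or Slc1a4 held any of the 3 motifs, and the E-box, found in 6.02% of all windows, occurred in none of the 6 genes. No 2 matches in these windows overlapped. A match describes letters in the window and is no evidence that a factor bound there. Sequence outside the windows was not searched, so the absence of a match does not show that a gene lacks the element.

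Slc38a2 was the most abundant of the 9 transporters. The gene lies on the minus strand of chr15:96687394-96699698 (mm10, as are all coordinates here) with 4626 bp of exon, the region over which fragments were counted. Replicates 1, 2, 3 and 4, in this order for every gene, held 587, 526, 720 and 510 TPM of it, a mean of 586 ± 95.4 TPM (SD, n = 4 here and below). Replicate 3 was highest, and the mean lay above 97.8% of the 9831 protein coding genes with a mean of 1 TPM or more. Its neighbour Slc38a1 (chr15:96571418-96642913, minus strand, 8391 bp of exon) lies 44480 bp away and stood at 238, 158, 189.6 and 215 TPM, a mean of 200.2 ± 34.5 TPM, with replicate 1 highest and replicate 2 lowest. Within a library Slc38a2 exceeded Slc38a1 2.99 ± 0.691-fold, from 2.37-fold in replicate 4 to 3.80-fold in replicate 3. Slc38a1 shares 6.59% of its distinct 31-base stretches with other genes, the most of the 9; Slc3a2 shares 4.15%, Slc7a11 2.84% and the other 6 at most 0.695%. Fragments that align in several places were not counted, and no exon of the 9 genes overlaps another gene on the same strand.

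The 2 SLC1 carriers stood far apart. Slc1a5 (chr7:16781340-16798274, plus strand, 4173 bp of exon) stood at 233, 169, 259 and 195 TPM, a mean of 214 ± 39.8 TPM, with replicates 1 and 3 above the others. Slc1a4 (chr11:20302180-20332713, minus strand, 3926 bp) stood at 1.41, 1.29, 1.55 and 2.11 TPM, a mean of 1.59 ± 0.363 TPM on 230 counts in all, and replicate 4 lay highest. The ratio of Slc1a5 to Slc1a4 was 139 ± 35.4, between 92.2 and 167 in single libraries. ASCT2, the product of Slc1a5, carries glutamine, which ASCT1 does not.

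Slc3a2 (chr19:8706882-8723369, minus strand, 3529 bp of exon), the shared heavy chain, stood at 309, 249.8, 273 and 291 TPM, a mean of 281 ± 25.5 TPM. Its light chain Slc7a5 (chr8:121881150-121907694, minus strand, 3708 bp) stood at 167, 126, 120.1 and 176 TPM, a mean of 147 ± 28.6 TPM, with replicates 1 and 4 above replicates 2 and 3. Slc7a6 (chr8:106168857-106198706, plus strand, 4570 bp), the other light chain at a high level, stood at 92.4, 71.8, 84.4 and 84.5 TPM, a mean of 83.2 ± 8.52 TPM, with replicate 2 lowest.

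The third light chain of the set, Slc7a11 (chr3:49892526-50443614, minus strand), was close to absent. It had 8, 5, 0 and 2 counts, 15 in all, over 13922 bp of exon, or 0.0547, 0.0294, 0 and 0.0186 TPM. The count of 0 in replicate 3 allows up to 3 counts, or 0.0284 TPM, by counting error alone. Slc7a11 was the only one of the 9 transporters below 1 TPM and the only one that did not pass the filter on low counts, so nothing about its variation was tested.

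**Figure D1:**
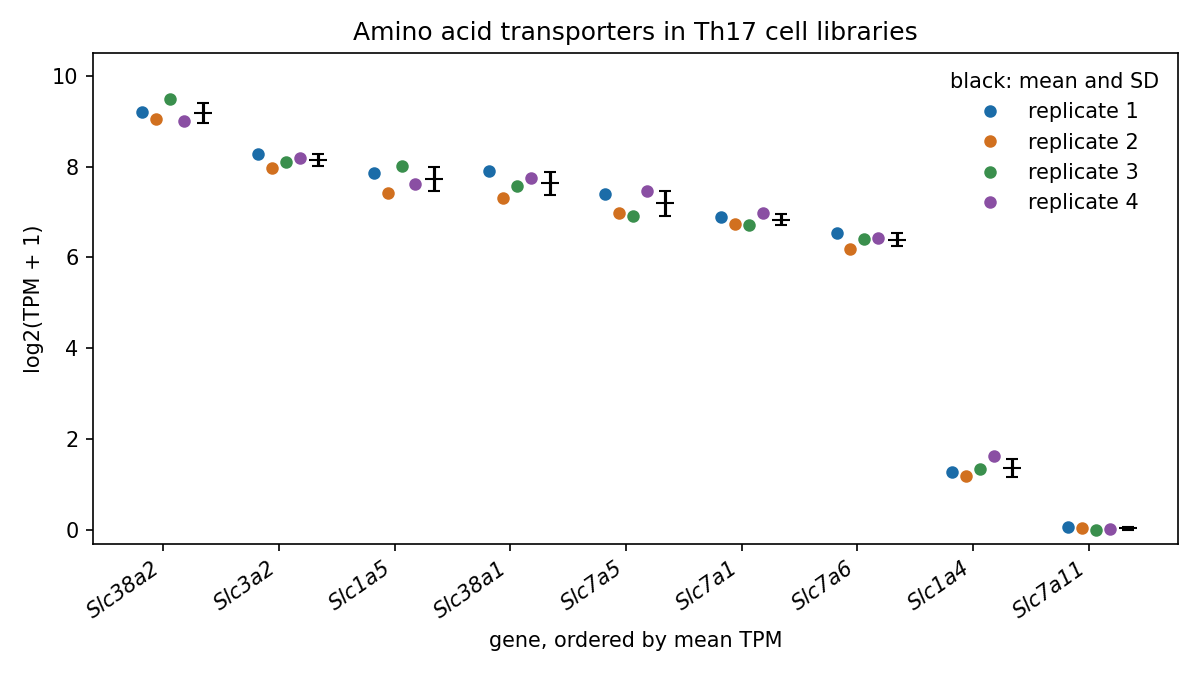
Level of each transporter in each library as log2(TPM + 1) on a linear axis; coloured points are replicates 1 to 4 and the black mark is the mean with SD (n = 4). From Slc38a2 to Slc7a6, 7 genes lie between 71.8 and 720 TPM in every library, while Slc1a4 lies near 1.59 TPM and Slc7a11 near 0.

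The heavy chain was set against the sum of its light chains (Slc7a5, Slc7a6, Slc7a7, Slc7a8, Slc7a10 and Slc7a11), since each dimer holds 1 of each. Slc3a2 stood at 1.19, 1.26, 1.33 and 1.11 times their summed TPM, which averaged 232 ± 34.6 TPM, so the heavy chain transcript was the more abundant side in 4 of 4 libraries. The mean log2(TPM + 1) difference was 0.29 ± 0.11 (SD, n = 4; exact two-sided sign-flip permutation test, p = 0.125, the smallest that 4 libraries allow). Slc7a5 made up 63.3 ± 3.61% of the summed light chains, and its ratio to Slc7a6 was 1.77 ± 0.273. Slc7a7 and Slc7a8 stood at 0.313 ± 0.223 and 0.664 ± 0.316 TPM, and Slc7a10 had 0 counts. The same exon lengths enter every library, so the agreement of the libraries does not cover an error in a length. Transcript levels do not give the amounts of the proteins.

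**Figure D2:**
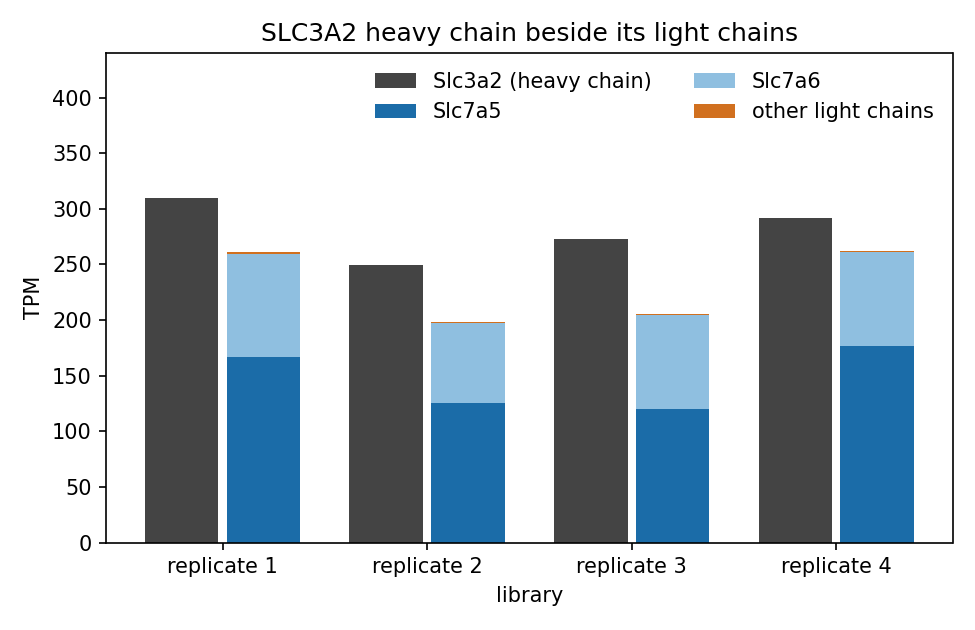
TPM (vertical axis, from 0) of Slc3a2 beside the stacked light chains Slc7a5, Slc7a6 and the rest in each library. The Slc3a2 bar is the taller in 4 of 4 libraries, by 1.11 to 1.33 times, and the other light chains are barely visible.

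Slc7a1 (chr5:148327410-148399904, minus strand, 11530 bp of exon), the cationic amino acid carrier, stood at 118, 106, 105 and 125 TPM, a mean of 113 ± 9.60 TPM. Its coefficient of variation on TPM, 8.46%, was the smallest of the 9. Slc7a1 did not rank lowest by the range of log2 CPM (counts relative to library size after TMM scaling). Its range was 0.44, wider than in Slc3a2 (0.30), Slc38a2 (0.31) and Slc7a6 (0.32). It was narrower than in Slc1a5, Slc38a1, Slc1a4 and Slc7a5. The other cationic carriers were low: Slc7a3 stood at 0.612 ± 0.369 TPM on 83 counts, and Slc7a2 had 0 counts.

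The order of the 9 means was Slc38a2, Slc3a2, Slc1a5, Slc38a1, Slc7a5, Slc7a1, Slc7a6, Slc1a4 and Slc7a11, and 35 of the 36 pairs of genes kept their order in 4 of 4 libraries. The exception was the neighbouring pair Slc1a5 and Slc38a1: Slc1a5 was the higher in 2 of 4 libraries, and the log2(TPM + 1) difference of 0.09 ± 0.26 lay within its spread (p = 0.75 by the same exact permutation test, and 0.75 adjusted over the 8 neighbouring pairs). The other 7 neighbouring pairs each had p = 0.125, the smallest the exact permutation test can give, and adjusted p = 0.143, so no pair could pass 0.05. Among them the smallest difference was 0.36 ± 0.16 between Slc7a5 and Slc7a1 and the largest 5.03 ± 0.21 between Slc7a6 and Slc1a4, where the order breaks into a high and a low part.

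Of the 9 transporters 8 had a mean of 1 TPM or more, against 45.2% of the 21764 protein coding genes. Their median of 147 TPM stood beside medians of 0.279 TPM over all protein coding genes and 24.9 TPM over those of at least 1 TPM. Together the 9 genes took 0.249 ± 0.0190% of all counts. Of the summed TPM of these 9 genes and 43 further carriers in 6 lists of other amino acid carriers, the 9 genes took 89.2 ± 1.09%. The 9 include the heavy chain Slc3a2. The 6 lists leave out the lysosomal and mitochondrial carriers, which summed to 30.1 to 37.8 TPM and 208 to 222 TPM in single libraries. With these the share would be lower. None of the 43 had a mean above that of Slc7a6, the lowest of the 7 abundant transporters, a cut set after the levels were seen. Slc38a10 came closest, at a mean of 77.6 TPM against 83.2 TPM. In replicate 2 it was the higher, at 77.3 TPM against 71.8 TPM. Several of the 43 stood above Slc1a4 and Slc7a11.

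No transporter passed the test for variation between the libraries beyond genes of like abundance. In the edgeR deviance test over 11567 genes, 0 of the 8 transporters tested had an adjusted p under 0.05, against 0.813% of all tested genes, and the same count was found with the DESeq2 size factors and dispersion trend. At an unadjusted p under 0.05, which 5.98% of all tested genes had, edgeR gave 1 transporter, Slc7a5 (edgeR adjusted p = 0.556). That count was 2 with the DESeq2 trend and 0 with library totals in place of TMM, without replicate 3 and without replicate 4. The range of log2 CPM (counts relative to library size after TMM scaling) over the 4 libraries was 0.74 for Slc7a5, the widest of the 8, against a median of 0.40 over all tested genes. Of the 3320 tested genes with a mean of at least 50 TPM, 4.73% had a wider range than Slc7a5. As the widest of the 8 is compared here, that share does not measure how unusual its range is. The lowest range, 0.30, was that of Slc3a2. Of the Th17 markers Il17f passed this test (10.2, 7.04, 11.7 and 20.8 TPM, edgeR adjusted p = 0.0171). Replicate 4 was highest for Il17f, as it was for Slc7a5, Slc7a1 and Slc1a4. Replicate 3 was next for Il17f but lowest for Slc7a5, at 120.1 TPM. Any relation of Il17f to the level of Slc7a5 was not tested.

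The direction of the small differences divided the genes. In 5 of the 8 tested transporters (Slc7a5, Slc3a2, Slc7a1, Slc7a6 and Slc38a1) the 2 highest libraries were replicates 1 and 4, against 20.7% of all tested genes, whereas Slc1a5 and Slc38a2 were highest in replicate 3. This division was noticed in the values and was not tested. Slc7a5 deviated from its own mean log2 CPM by 0.21, -0.16, -0.39 and 0.35, and Slc38a2 by 0.02, -0.09, 0.19 and -0.12. This was the most unlike of the 28 pairs, with a root mean square difference of 0.387 on the log2 scale, and the most alike pair was Slc3a2 and Slc7a6, at 0.0409.

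**Figure D3:**
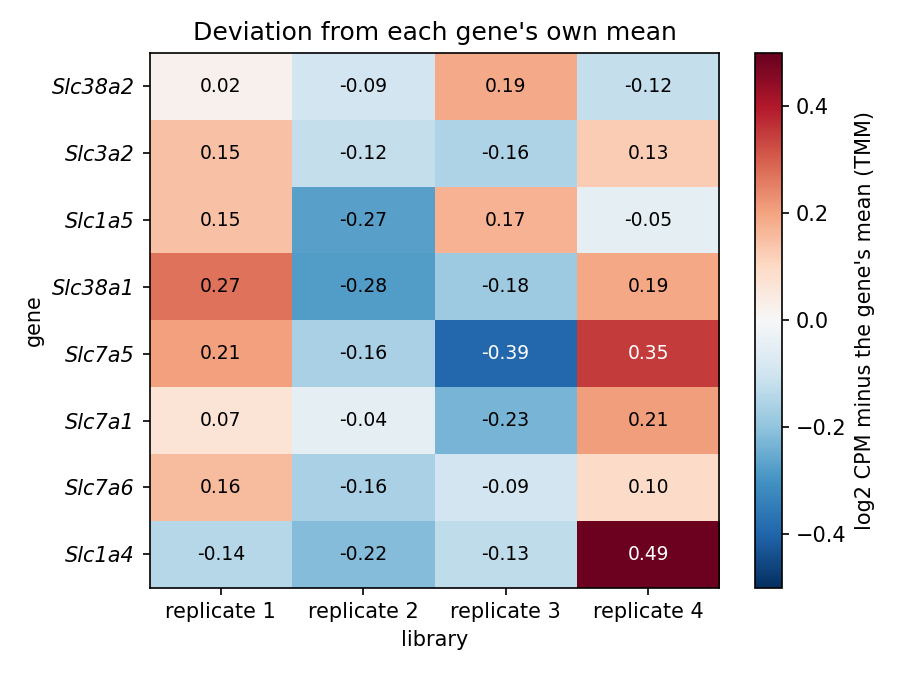
Deviation of each tested transporter from its own mean, in log2 CPM after TMM scaling (colour and printed number), by library. Slc7a5 shows the widest range, with -0.39 in replicate 3 and 0.35 in replicate 4, and Slc1a4 stands out in replicate 4 at 0.49.

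Genes with the most similar profile over the 4 libraries were listed by the same distance. Nearest to Slc7a5 were Smn1 (0.0163), which encodes the survival motor neuron protein of spliceosome assembly, Gtf2e1 (0.0280), a general transcription factor subunit, Fam110a (0.0328), D10Wsu102e (0.0340) and Sephs2 (0.0350), the selenophosphate synthetase, with distances in log2 units. Nearest to Slc3a2 were Pisd (0.00735), Cebpz (0.0104), Mtdh (0.0122), Snrpa1 (0.0142) and Cd274 (0.0154), which encodes the inhibitory ligand PD-L1. With 4 libraries many genes share such a profile: 17 lay within 0.05 of Slc7a5 and 232 within 0.05 of Slc3a2.

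The remaining amino acid carriers, 58 measured in 8 lists, stood near the level of protein coding genes in general. Of them 25 reached 1 TPM, against 45.2% of all protein coding genes, and their median was 0.319 TPM, against 0.279 TPM; 19 had 0 counts in every library. Of the 28 tested 0 varied beyond the trend (edgeR, adjusted p under 0.05), against 0.813% of all tested genes, and 1 had an unadjusted p under 0.05, against 5.98%. That gene was Slc38a9, which lies on the lysosome and takes part in arginine sensing, with 6.14, 5.68, 10.9 and 4.42 TPM (edgeR adjusted p = 0.123). Among the other light chains and the heavy chain Slc3a1, only Slc3a1 reached 1 TPM, at 1.11 ± 0.121 TPM, and Slc7a9, Slc7a10 and Slc7a13 had 0 counts. Of the remaining SLC7 carriers none reached 1 TPM; Slc7a4 stood at 0.156 ± 0.122 TPM, and Slc7a14 had 0 counts. The glutamate carriers of the SLC1 family were at or near 0, with Slc1a2, Slc1a6 and Slc1a7 at 0 counts, Slc1a3 at 4 and Slc1a1 at 2 counts in all.

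Some other carriers did stand high. Among the other SLC38 genes Slc38a10 led at 77.6 ± 0.873 TPM, ahead of Slc38a9 at 6.80 ± 2.86 TPM and Slc38a7, a lysosomal glutamine exporter, at 3.25 ± 0.803 TPM; Slc38a4, Slc38a5 and Slc38a11 had 0 counts and Slc38a8 1 count. Of 11 SLC6 genes only Slc6a6, the taurine carrier, reached 1 TPM, at 64.7 ± 6.24 TPM, and 7 had 0 counts; Slc6a19 stood at 0.117 ± 0.0273 TPM and Slc6a5 at a mean of 0.0296 TPM. The uniporter Slc43a2 (13.8 ± 2.67 TPM) and the proton-coupled carriers Slc36a1 (9.14 ± 2.05 TPM) and Slc36a4 (8.55 ± 1.04 TPM) led their list of 8, in which 5 reached 1 TPM and Slc36a2 had 1 count.

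Carriers of inner membranes were more evenly present. All 5 measured lysosomal carriers reached 1 TPM, from Slc15a4 at 11.9 ± 1.07 TPM, the cystine exporter Ctns at 10.1 ± 1.57 TPM and Slc15a3 at 4.59 ± 0.373 TPM to Mfsd12 at 2.66 ± 0.182 TPM. Of 10 mitochondrial carriers 9 did so, led by the glycine carrier Slc25a38 at 55.2 ± 3.06 TPM, the branched-chain amino acid carrier Slc25a44 at 35.3 ± 3.03 TPM and the serine carrier Sfxn1 at 33.6 ± 1.60 TPM. The lowest of those detected was Slc25a13 at 2.09 ± 0.333 TPM, and Slc25a18 had 0 counts.

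**Figure D4:**
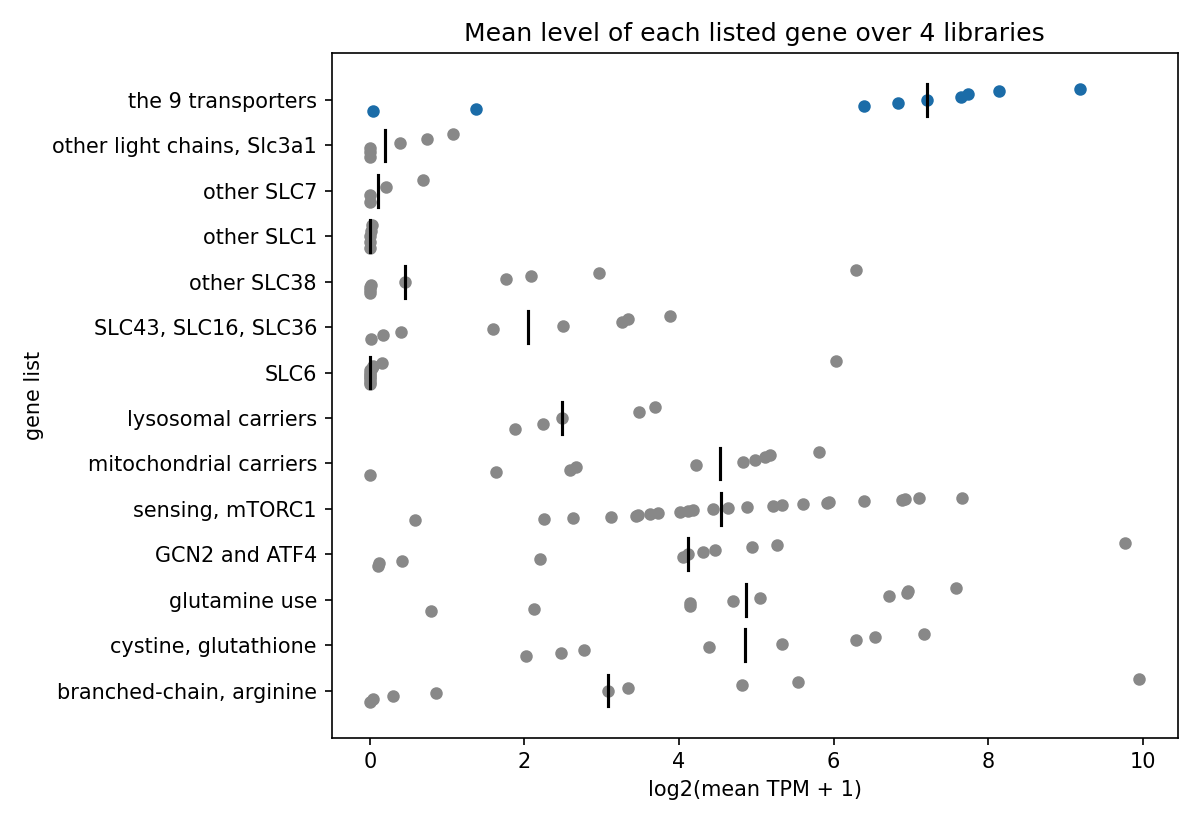
Mean level of each listed gene over 4 libraries as log2(mean TPM + 1), 1 point per gene and 1 row per list, with the list median as a black bar. The 9 transporters have a median of 147 TPM, and the lists of other SLC1 and SLC6 carriers have medians of 0 TPM.

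Genes that sense or use the carried amino acids reached 1 TPM in 53 of 62 cases over 5 lists, against 45.2% of all protein coding genes. Of the 56 tested 1 varied beyond the trend (edgeR, adjusted p under 0.05), against 0.813% of all tested genes; this was Bcat1, whose call was lost without replicate 4. The list of amino acid sensing around the kinase complex mTORC1 held 24 genes, among them those of its subunits, Mtor, Rptor and Mlst8. Of these 24 genes, 23 reached 1 TPM. They were led by the Rag GTPase Rraga at 202 ± 20.7 TPM, Fnip1, a partner of folliculin, at 137 ± 21.4 TPM and the GTPase Rheb at 120.1 ± 11.1 TPM. Fnip2 stood at 0.496 ± 0.102 TPM. Among 11 genes of the GCN2 and ATF4 response, which is switched on when amino acids run short, 8 reached 1 TPM. Atf4 itself stood at 877 ± 53.4 TPM, followed by Ddit4 at 37.5 ± 12.2 TPM and Ddit3 at 29.9 ± 3.40 TPM. The lowest was Cth at 0.0792 ± 0.0571 TPM. Of the other genes of the list, named after their values were seen, Chac1 had 5 counts in all and the asparagine synthetase gene Asns stood at 0.331 ± 0.0729 TPM, while Psat1 stood at 21.1 ± 4.26 TPM, Cebpb at 18.9 ± 3.35 TPM, Atf5 at 16.3 ± 1.41 TPM, Eif2ak4, which encodes GCN2, at 15.5 ± 1.62 TPM and Trib3 at 3.58 ± 0.460 TPM.

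Enzymes of glutamine and glutamate use reached 1 TPM in 9 of 10 genes. The aspartate aminotransferase Got1 stood at 190.6 ± 12.8 TPM, glutamate dehydrogenase Glud1 at 124 ± 4.96 TPM and glutamine synthetase Glul at 122 ± 10.02 TPM; Gpt2 was lowest at 0.728 ± 0.2098 TPM. All 8 genes of cystine use and glutathione synthesis reached 1 TPM, with Txnrd1 at 143 ± 14.6 TPM, Nfe2l2 at 92.0 ± 8.74 TPM and Gpx4 at 77.2 ± 10.4 TPM in the lead and Gss lowest at 3.06 ± 0.244 TPM. Glud1, Glul and Gpx4 share 10.4%, 19.7% and 38.9% of their 31-base stretches with other genes, and their levels are uncertain.

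Of 9 genes of branched-chain amino acid and arginine use 5 reached 1 TPM. Odc1, the ornithine decarboxylase, led at 992 ± 180.5 TPM, with 31.3% of its 31-base stretches found elsewhere, ahead of Bckdha at 45.4 ± 2.88 TPM and the mitochondrial aminotransferase Bcat2 at 27.2 ± 5.19 TPM. The arginase Arg1 had 0 counts and Nos2 6. Bcat1, the cytosolic branched-chain aminotransferase, was the listed gene that varied beyond the trend, with 0.551, 0.342, 0.552 and 1.82 TPM (edgeR adjusted p = 0.00188). The call rests on replicate 4, in which Bcat1 had 131 of its 263 counts; without that library the adjusted p was 0.9998.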

How the data were processed

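Each deposited table holds raw counts of fragments by gene, which the authors made with featureCounts 1.4.6-p4 on exons of GENCODE mouse release M13, per the file headers. Only pairs with both ends mapped were counted, in the reverse-stranded mode (2), and the recorded options do not admit fragments that align to several places or genes. The aligner named in the headers is STAR, with its version not given in the sources used here; the labels name mm10. The labels call the assay total RNA-seq and link a poly(A)+ library protocol. The exon length in bp comes from the same deposited tables.

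TPM was computed from counts and exon lengths. Each gene has 1 exon length for all libraries, whichever of its transcripts are present. An error in a length would therefore repeat in every library. Ratios between genes and the order of levels carry this limit, and other lengths were not tested. Symbols and biotypes came from GENCODE M21 by identifier without version (50376 of 50600 matched). Coordinates of genes are those of the files. No pair of libraries was identical, and chi-square values between pairs were 11.5 to 35.8 per degree of freedom. Such values cannot show whether the libraries come from separate animals or cultures, and the labels do not say. Each library was taken as 1 replicate, as labelled, so errors and p-values measure only the spread between these libraries. That spread includes any difference that goes with the sex-linked genes, which set replicates 1 and 2 apart from replicates 3 and 4. Such a difference was not tested. In the shallowest library 3 counts equal 0.116 CPM. Limits cover counting error only.

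Variation was tested with edgeR 4.0.16 in R 4.3.3: intercept only, expression filter, TMM, and each gene's deviance under the dispersion trend referred to chi-square (3 degrees of freedom), Benjamini-Hochberg adjusted over 11567 genes. With 1 group, edgeR's test of a coefficient does not apply. DESeq2 1.42.0 gave alternative size factors and dispersions. Sharing between genes is the percent of a gene's distinct 31-mers found in another gene's M21 transcripts. Levels, permutation tests and figures were made in Python 3.11.15 with scipy 1.17.1, numpy 2.4.6, matplotlib 3.10.9 and pandas 2.3.3.

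The genes and gene lists were chosen with earlier results of these data known, and the motifs after the levels were seen. Named genes are the 9 transporters and, in each list, the 3 highest, the lowest, those varying beyond the trend and those with 0 counts in all libraries where these number 5 or fewer; nearest profiles are the 5 genes closest to Slc7a5 (which also had the widest range) and to Slc3a2. Slc66a1 in the list of lysosomal carriers is the newer name of Pqlc2 and was counted once. Some genes of these lists are not reported here.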

Additional observations from a re-analysis of the deposited data

Results flagged for a closer look

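In 67 named genes the gap between the highest or lowest library and its nearest neighbour was divided by the whole range; 6 exceeded the 95% critical value of Dixon's test for 4 samples, and chance flags about 1 in 20. None of the 9 transporters was among them. Bcat1 was high in replicate 4 (ratio 0.858). Sfxn1 was low in replicate 2 (ratio 0.983), at 31.2 TPM against 34.4 TPM in each of the others. These ratios were taken on TPM, and the edgeR deviance test after TMM scaling gave Sfxn1 an unadjusted p = 0.899. Slc6a19 was low in replicate 1 (ratio 0.953) on 4 counts. Slc1a1 had its 2 counts in replicate 2, Slc36a2 its 1 count in replicate 1 and Slc38a8 its 1 count in replicate 4, which gives each a ratio of 1.0.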

How the results depend on the processing

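The count of 0 transporters varying beyond the trend was the same with DESeq2 size factors, library totals, the DESeq2 dispersion trend, no filter on low counts and without each replicate; the lowest adjusted p of a transporter over these 64 values was 0.329 (Slc7a5, DESeq2 trend). The total of varying genes, 94, was 85 to 96 under the other settings and 35 to 60 without 1 replicate, where fewer libraries entered the test. Of 40 alternatives for neighbouring pairs 39 kept the direction; the difference of Slc1a5 and Slc38a1 turned to -0.026 without replicate 3 and was at most 0.17 (without replicate 4). Summed over the 9 genes the level was 1626 ± 162 TPM, and as FPKM with TMM library sizes it was 475 ± 37.0, on another scale. The spread relative to the mean also changed. It was narrower for Slc38a2 (170 ± 17.1 FPKM against 586 ± 95.4 TPM) and wider for Slc7a1 (33.3 ± 4.24 FPKM against 113 ± 9.60 TPM). The excess of Slc3a2 over its light chains was 0.24 to 0.33 without 1 replicate and 0.94 against Slc7a5 alone. At a minimum of 2 TPM, 7 of the 9 transporters remained. All 10 nearest genes were also found with DESeq2 size factors. Depth limits Slc7a11, at 15 counts, and the carriers named with few counts. No paired analysis was possible because there is 1 group.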
